A study of Mus musculus with 3 samples.

Results

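The genes described here encode the machinery of oxidative phosphorylation. They were taken by name from the rows of the count tables: every row beginning with Ndufa, Ndufb, Ndufc, Ndufs, Ndufv, Sdh, Uqcr, Cox, Atp5 or mt-, apart from Ndufa4, Ndufa4l2, Cox4i1 and Cox4i2. This rule used no measured value and found 134 of the 24071 rows. Of these, 117 are nuclear and 17 are mitochondrial. The nuclear rows hold 83 subunits: 7 core and 32 supernumerary subunits of complex I, 4 of complex II, 8 of complex III, 15 of complex IV and 17 of complex V. They were grouped by name, and among the 32 GENCODE M21 annotates Ndufb4c and Ndufs6b as processed pseudogenes and Ndufb1-ps as a long non-coding RNA. The others are 21 assembly factors and regulators and 13 rows for pseudogenes or gene models. The mitochondrial rows are 12 mRNAs and 5 ribosomal or transfer RNAs.

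Oxidative phosphorylation joins the respiratory chain, complexes I to IV, to ATP synthase, complex V, in the inner mitochondrial membrane. Complex II is encoded by nuclear genes alone, while complexes I, III, IV and V combine nuclear subunits with subunits translated inside the mitochondrion from mitochondrial DNA. The retina is among the most oxygen-demanding tissues of the body, and photoreceptors crowd mitochondria into their inner segments, whereas Müller glia are known for their strong glycolysis. Because the subunits come from separate genomes, the amounts of nuclear and mitochondrial transcripts can be set beside each other in every cell class.

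The retinas came from mice at P26 (postnatal day 26). The study made 1 single-cell library from each of 3 groups. These are wild type retinas (WT), retinas of the Tspan12 knockout (KO), and retinas of knockout mice that received F4L5.13, called treated here. TSPAN12 is a tetraspanin that assists Norrin signalling through FZD4 and LRP5 in retinal blood vessels, and F4L5.13 is an antibody that activates FZD4 and LRP5 without Norrin. Per the labels, F4L5.13 was injected intraperitoneally at 10 mg/kg on days 6, 9 and 12 and at 4 mg/kg every 3 days after that. All 3 samples, the WT included, carry the strain label Tspan12tm1.2Hjug, so the group was read from the sample title. How many animals gave each suspension, and of which sex, is not given in the labels. The retinas were dissociated with papain, and photoreceptors and dying cells were depleted with magnetic beads against CD73 and Annexin V. With 1 library per group there is no replicate and no test between groups, and each difference between libraries below is a difference between single libraries.

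The libraries held 6092 (WT), 10769 (KO) and 9835 (treated) barcodes, of which 5785, 9357 and 8215 were kept. Median reads per barcode, before filtering, were 14797, 7351 and 6588, and pairs of libraries shared 12 to 21 kept barcodes. Clusters were named from marker genes, with the 134 genes left out of the clustering, and 6 classes had at least 50 cells in every library: Müller glia, rods, cones, rod bipolar cells, cone bipolar cells and amacrine cells. They held 1620, 1198 and 1122 Müller cells in the WT, KO and treated libraries, 211, 2327 and 1831 rods, and 119, 1215 and 141 amacrine cells. All 12 Müller markers had reads in the Müller class of every library. Tspan12 itself was read at 47.6 CPM in WT Müller cells, 32.1 in KO and 28.8 in treated Müller cells, where CPM is the reads of a gene per 1000000 reads of that class. The tags come from the 3′ ends of transcripts, and no label or header places them inside or outside the deleted part of Tspan12, so this does not check the labels.

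Before any value, the mitochondrial rows need a look at sequence, because 3 of them are nearly empty. Over all barcodes, mt-Co2, a core subunit of cytochrome c oxidase, had 0.202 CPM in WT, 0.171 in KO and 0.123 in the treated library. Likewise mt-Atp6, the proton channel subunit of ATP synthase, had 0.32, 0.256 and 0.285 CPM, and mt-Co3 had 0.43, 0.228 and 0.347 CPM. These are among the most abundant mRNAs of most cells. A stretch of chromosome 1 carries nuclear copies of them, annotated as unprocessed pseudogenes, and the rows of those copies held many reads. Gm28661 aligns to mt-Co2 over 681 bases with 0 mismatches and had 11684 CPM in WT, 10159.7 in KO and 13466 in treated. Gm10925 matches mt-Atp6 over 678 bases with 0 mismatches and had 18651, 15311 and 19859 CPM. Gm28437 matches mt-Co3 over 783 bases with 0 mismatches and had 14783, 13260 and 15029 CPM. The last 60 bases of each aligned stretch are shown because they are identical within each pair, so that a read from there cannot be told apart by sequence. The transcripts are those of GENCODE M21 on GRCm38, the assembly also called mm10. They lie on the plus strand of the mitochondrial genome at chrM:7634-7693, chrM:8545-8604 and chrM:9330-9389, and on the minus strand of chromosome 1 at chr1:24614885-24614944, chr1:24613974-24614033 and chr1:24613189-24613248.
mt-Co2: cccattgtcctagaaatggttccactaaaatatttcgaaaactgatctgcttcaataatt
Gm28661: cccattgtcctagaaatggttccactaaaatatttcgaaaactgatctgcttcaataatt
mt-Atp6: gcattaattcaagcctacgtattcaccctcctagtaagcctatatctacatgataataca
Gm10925: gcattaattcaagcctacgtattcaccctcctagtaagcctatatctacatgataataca
mt-Co3: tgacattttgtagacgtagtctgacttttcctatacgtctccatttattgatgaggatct
Gm28437: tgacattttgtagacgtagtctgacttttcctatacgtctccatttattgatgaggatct

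In the pairs where a copy differs from its mitochondrial gene by a base, reads were found in both rows. Each such base lies near the start of the aligned stretch, so reads from the rest of that stretch cannot be told apart by sequence. Gm28438 differs from mt-Nd3 by T3C over 345 aligned bases, with positions counted from the first base of the mitochondrial gene, and had 1215, 1198 and 1385 CPM beside 889.8, 861 and 576 CPM for mt-Nd3. Gm29216 aligns to bases 1063 to 1545 of mt-Co1 with A1066T, and had 5895, 6378 and 6392 CPM beside 1437, 1286 and 1489 CPM for mt-Co1. A stretch of 60 bases with each substitution is shown with the differing base in capitals. They lie at chrM:9459-9518 and chrM:6390-6449, plus strand, and at chr1:24613060-24613119 and chr1:24616129-24616188, minus strand. In mt-Nd4 the copy Gm28439 covers the first 876 of 1378 bases without a mismatch and had at most 0.236 CPM in any library, beside 5931.5 to 6582 CPM for mt-Nd4. A further copy, Gm10222, matches mt-Nd4l over 294 bases with 0 mismatches and was not analysed here, and mt-Nd4l had 389, 394 and 333 CPM.
mt-Nd3: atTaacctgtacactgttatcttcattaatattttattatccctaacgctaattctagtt
Gm28438: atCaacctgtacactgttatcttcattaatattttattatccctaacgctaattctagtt
mt-Co1: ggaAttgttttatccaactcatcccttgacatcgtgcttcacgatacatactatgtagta
Gm29216: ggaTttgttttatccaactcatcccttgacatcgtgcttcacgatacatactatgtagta

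Together the 6 chromosome 1 copies with values took 5.22% of all reads in WT, 4.63% in KO and 5.61% in the treated library. That is 60.8%, 61.3% and 63.8% of the reads of the mitochondrial mRNA rows and the copies combined. The mitochondrial mRNA share used below is that of the 12 mitochondrial mRNA rows as deposited, and the quotients are also compared with the copies counted as mitochondrial. mt-Atp8, the remaining mitochondrial mRNA, has no value here.

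**Figure D1:**
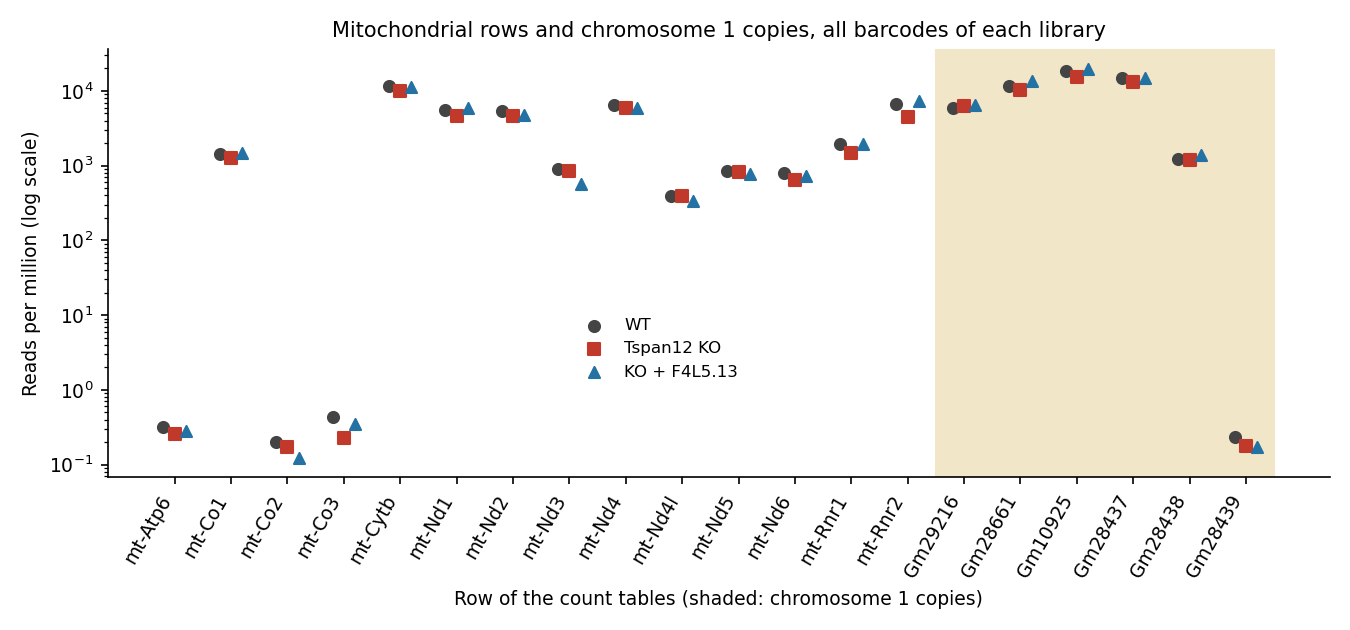
CPM (log axis) of 14 mitochondrial rows and, shaded, 6 chromosome 1 copies over all barcodes of the WT (circles), KO (squares) and treated (triangles) libraries. The rows mt-Co2, mt-Co3 and mt-Atp6 lie below 1 CPM in all 3 libraries, while Gm28661, Gm28437 and Gm10925 lie above 10000.

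Müller glia gave a smaller share of their reads to the nuclear subunits than any of the 5 neuronal classes, in each library. The 83 nuclear subunits took 2.16% of Müller reads in WT, 2.36% in KO and 2.07% in treated cells, against 2.84% to 3.8% in the neuronal classes. The mitochondrial mRNA rows took 3.88%, 3.25% and 3.56% of Müller reads, which lies within the neuronal range of 2.29% to 4.79%. In rods the nuclear share was 3.52% in WT, 3.3% in KO and 3.13% in treated cells, and the mitochondrial mRNA share was 4.79%, 2.78% and 3.29%. Rod bipolar cells held the highest nuclear share of the 6 classes in every library, with 3.77%, 3.8% and 3.67%. Amacrine cells lay at the low end of the mitochondrial range with 2.49%, 2.54% and 2.29%, close to cone bipolar cells at 2.62%, 2.4% and 2.41%. Over the 18 values of 6 classes in 3 libraries, which share libraries and depth, nuclear and mitochondrial shares had a Pearson r of 0.159, given as a description only.

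Dividing the nuclear by the mitochondrial mRNA share gave a quotient that was higher in the KO than in the WT library in 6 of 6 classes. In Müller cells it was 0.556 in WT, 0.725 in KO and 0.581 in treated cells, with 95% counting intervals of 0.554 to 0.559, 0.721 to 0.729 and 0.577 to 0.584. Most WT and treated Müller cells belong to cluster 3 and most KO Müller cells to cluster 7, but within cluster 4, which holds 334, 377 and 327 of them, the quotient was 0.639, 0.79 and 0.648. Cluster 4 also had 6 rod markers at least 2-fold above other clusters and present in 20% of its cells. In clusters 3 and 7 the second marker list was that of astrocytes, with 4 and 5 markers. The part of the rod markers in the cluster 4 quotient was not tested. In cones the quotient was 0.79, 0.915 and 0.857. Rod markers in the cone class summed to 32793 CPM in WT, 15503 in KO and 25146 in treated cells, and their part in the cone quotient was not tested. The same markers summed to 2327, 1196 and 991 CPM in rod bipolar cells, 2951.5, 1825 and 2092 CPM in cone bipolar cells and 2149, 870.5 and 1606 CPM in amacrine cells, in the same order of libraries. In rod bipolar cells the quotient was 0.986, 1.23 and 1.09. Cone bipolar cells differed little, with 1.16, 1.18 and 1.19, as did amacrine cells with 1.27, 1.33 and 1.37. Within clusters that hold at least 20 cells of both libraries, the KO quotient was above WT in 3 of 3 Müller clusters, 2 of 2 rod clusters, 10 of 14 cone bipolar clusters and 2 of 3 amacrine clusters, or 1 of 3 amacrine clusters with the copies counted. This look within clusters was chosen after the values were seen, and cones and rod bipolar cells were not part of it. Most KO amacrine cells lie in clusters 17, 27, 36, 40 and 41, each with 10 or fewer WT cells. The treated library had a higher quotient than the KO library in 2 of 6 classes, the cone bipolar and amacrine cells, and a higher one than WT in 6 of 6. With the chromosome 1 copies counted as mitochondrial, the quotient was still higher in KO than in WT in 6 of 6 classes, while treated cells exceeded KO cells in 0 of 6 and WT cells in 3 of 6. Weighting every cell equally left treated cells above WT in 2 of 6 classes. These comparisons share libraries, since KO enters the first and the second and WT the first and the third.

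Rods had the widest gap between KO and WT, with a quotient of 0.736 in WT, 1.19 in KO and 0.951 in treated cells, and depth moved with it. Median reads per rod were 14578 in WT, 4287 in KO and 4568 in treated cells. Among rods with at least 8000 reads the quotient was 0.739 in the 169 left of WT, 0.958 in the 66 of KO and 0.845 in the 90 treated rods. The order of the libraries was the same and the gap between KO and WT smaller. Median reads of these deeper rods were still 17009 in WT, 9319.5 in KO and 13316.5 in treated cells, so depth was not matched. Since the beads removed photoreceptors, the rods that remained are those that escaped depletion. Further barcodes with rod markers are not in the rod class. Cluster 1, with 12 rod markers, held 7 WT, 1444 KO and 1648 treated cells, and cluster 8, with 11, held 4, 470 and 252. Both were left unnamed, at median depths of 0.326 and 0.309 of the medians of their libraries. Their part in the rod values was not tested.

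**Figure D2:**
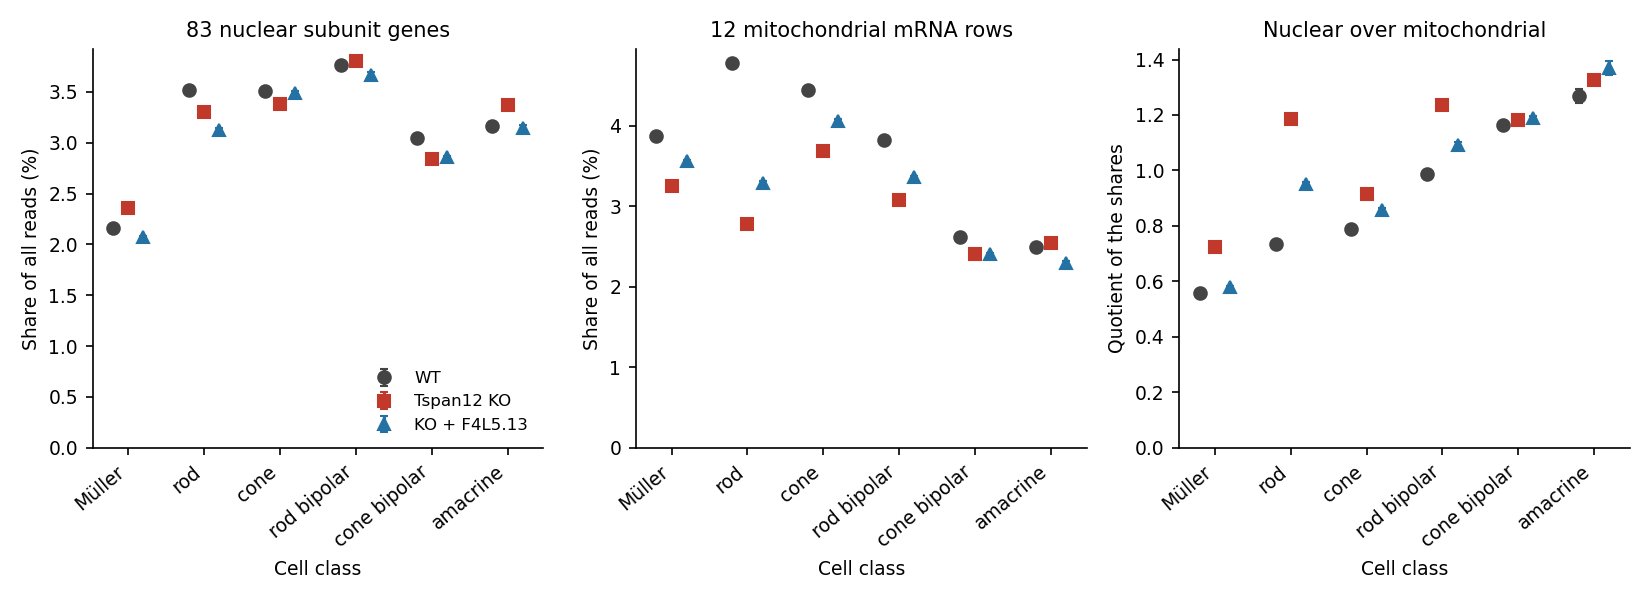
Share of all reads in the 83 nuclear subunit genes (left) and the 12 mitochondrial mRNA rows (middle), and their quotient (right), for 6 classes in the WT (circles), KO (squares) and treated (triangles) libraries. Bars are 95% counting intervals, mostly smaller than the symbols, and the KO quotient lies above the WT quotient in all 6 classes.

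The mitochondrial ribosomal RNAs differed between libraries in the same direction in every class, KO being lowest. Their share of reads in Müller cells was 0.936% in WT, 0.663% in KO and 1.02% in treated cells. It was lower in KO than in WT and higher in treated than in KO cells in 6 of 6 classes. mt-Rnr2, the 16S ribosomal RNA of the mitochondrial ribosome, is treated with the genes shared by all classes below.

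Smaller classes are given as levels only. Astrocytes, with 22 to 49 cells per library, had quotients of 0.41 in WT, 0.56 in KO and 0.449 in treated cells. Horizontal cells, with 39 to 94 cells, had 1.02, 1.16 and 1.19. Endothelial cells were too few in the KO library and had 1.5 in WT and 1.48 in treated cells. Microglia had 0.888 in KO and 0.902 in treated cells.

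For single genes, a gene was called when its CPM in a library was at least 25% above that in the other, its exact 95% counting interval lay beyond 1, and the higher library held at least 30 molecule equivalents (reads divided by an estimate of reads per molecule). This measures the difference between those libraries and not between genotypes. Comparing KO with WT Müller cells, 8 of 79 nuclear subunits past that minimum were called higher and 5 were called lower. Of all 13402 genes past it, 13.3% were called higher and 17.9% lower, beside 10.1% and 6.33% of the subunits. Their median log2 ratio was 0.13, against -0.04 over all genes, and 54 of 79 had a ratio above 1. Within cluster 4, where the libraries share Müller cells most evenly and rod markers were also found, 6 were called higher and 7 lower. The other 4 of 83 subunits were under the minimum.

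Complex I, the NADH dehydrogenase, had 0 of 7 core subunits called in either direction in KO against WT Müller cells, with a median log2 ratio of 0.02. Its 32 supernumerary subunits, which surround the core, had 4 called higher and 3 lower. Ndufs5 (chr4:123712710-123718202, minus strand), an accessory subunit on the intermembrane side, had 26.6 CPM in WT, 44.3 in KO and 19.9 in treated Müller cells. The KO library was highest, with a ratio to WT of 1.66 (95% counting interval 1.44 to 1.92). Ndufs6b, a single-exon relative of Ndufs6 that GENCODE annotates as a processed pseudogene opposite Slc28a1, had 2.23, 4.62 and 1.99 CPM. Ndufa11, a membrane-arm subunit, had 245, 315 and 236 CPM and a KO to WT ratio of 1.29 (1.22 to 1.35). In the opposite direction, Ndufb4 had 136 CPM in WT, 91.8 in KO and 117 in treated cells, a ratio of 0.675 (0.623 to 0.731).

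Complex II, succinate dehydrogenase, was the only group of subunits whose median log2 ratio of KO to WT was below 0 in all 6 classes, from -0.32 in amacrine cells to -0.08 in Müller cells. In Müller cells the median over all genes was -0.04. There 1 of the 4 subunits of complex II was called lower and 0 higher, and 2 had a ratio above 1. Sdhd (chr9:50596357-50603812, minus strand), a membrane anchor of the complex that carries ubiquinone binding residues, had 38.3 CPM in WT, 27.7 in KO and 42.4 in treated cells, with a KO to WT ratio of 0.722 (0.621 to 0.838). The flavoprotein Sdha had 167, 149 and 155 CPM and the iron-sulphur protein Sdhb 131, 142 and 129 CPM, neither called.

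Complex III, the cytochrome bc1 complex, had 2 of 8 subunits called higher and 0 lower in KO Müller cells. Uqcr11 (chr10:80402997-80406830, minus strand), a small subunit of it, had 674 CPM in WT, 928 in KO and 599 in treated cells, so that KO exceeded both other libraries. The ratio of KO to WT was 1.38 (1.34 to 1.42). Uqcrq, a subunit beside the cytochrome b core, had 490.3, 643 and 466 CPM.

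Complex IV, cytochrome c oxidase, had 1 of 12 subunits called higher and 1 lower. Cox7a1, known as the heart and muscle isoform of subunit 7a, had 11.8 CPM in WT, 21.1 in KO and 10.8 in treated Müller cells, a KO to WT ratio of 1.78 (1.44 to 2.22). Cox6b2, known as the testis isoform of subunit 6b, had 106, 70 and 65.3 CPM, with KO and treated cells both below WT. The ubiquitous partner isoforms were not called: Cox7a2 had 430.03, 471 and 407 CPM, and Cox6b1 had 475, 548 and 480.2 CPM.

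Complex V, ATP synthase, had 1 of 16 subunits called higher and 0 lower. Atp5k (chr5:108433244-108434448, minus strand), subunit e, which takes part in joining ATP synthase dimers, had 209.9 CPM in WT, 291 in KO and 183 in treated cells. The KO to WT ratio was 1.39 (1.31 to 1.46). The catalytic subunit Atp5b had 481, 522 and 479 CPM and was not called.

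Among the assembly factors, 0 of 21 were called higher and 3 (14.3%) lower in KO Müller cells, beside 13.3% and 17.9% of all genes. Cox17, the copper chaperone for cytochrome c oxidase, had 232 CPM in WT, 163 in KO and 209 in treated cells. Sdhaf3, an assembly factor of complex II, had 13.4, 9.4 and 15 CPM. Of the mitochondrial mRNA rows, 0 of 9 past the minimum were called higher and 2 (22.2%) lower. These were mt-Nd1, with 6340.5, 4600.4 and 6826 CPM, and mt-Nd2, with 7849, 5726 and 6672 CPM, both core subunits of complex I. The other 7 rows were not called, among them mt-Cytb, the cytochrome b of complex III, with a ratio of 0.842, and mt-Nd4 with 0.96. The remaining 3, mt-Co2, mt-Co3 and mt-Atp6, were under the minimum. The sum of mt-Co1 and its copy Gm29216, a pair chosen after its values were seen, was higher in KO than in WT Müller cells, at a ratio of 1.16 (1.15 to 1.17). That ratio was 0.837 in rods and between 1.04 and 1.19 in the remaining classes. Of the ribosomal and transfer RNA rows 3 of 5 passed it and were called lower, and of the 13 pseudogene and gene model rows 3 passed it and were called higher.

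Comparing treated with KO Müller cells, 2 of 79 nuclear subunits were called higher and 20 lower, while 15.1% of all genes were called higher and 11.5% lower. The median log2 ratio of the subunits was -0.17, against 0.03 over all genes. By complex, the supernumerary subunits of complex I had 1 higher and 8 lower, complex III 0 and 3, complex IV 0 and 3, and complex V 0 and 6, while the core of complex I had 0 and 0. Of the assembly factors, 4 of 21 (19%) were called higher and 0 lower, with a median log2 ratio of 0.02, close to that over all genes. Sdhd was called higher, at a ratio of 1.53 (1.31 to 1.8), and Ndufb4 at 1.27 (1.16 to 1.39). Ndufs5 was lower at 0.449 (0.373 to 0.538), Atp5k at 0.629 (0.591 to 0.669) and Uqcr11 at 0.646 (0.624 to 0.668). The KO library enters this comparison and the previous one, so a gene read high in that library alone would be called in both. Within cluster 4, 3 were called higher and 15 lower.

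Treated against WT Müller cells, the comparison without the KO library, had 0 of 78 subunits called higher and 6 lower, beside 7.24% and 6.72% of all genes. Cox7c (chr13:86044816-86046904, minus strand), a small subunit of cytochrome c oxidase, had the lowest ratio, with 135 CPM in WT, 114 in KO and 66.1 in treated cells, a treated to WT ratio of 0.488 (0.442 to 0.539). Atp5l, subunit g of ATP synthase, had 53.6, 47 and 35.5 CPM, a ratio of 0.663 (0.574 to 0.763).

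**Figure D3:**
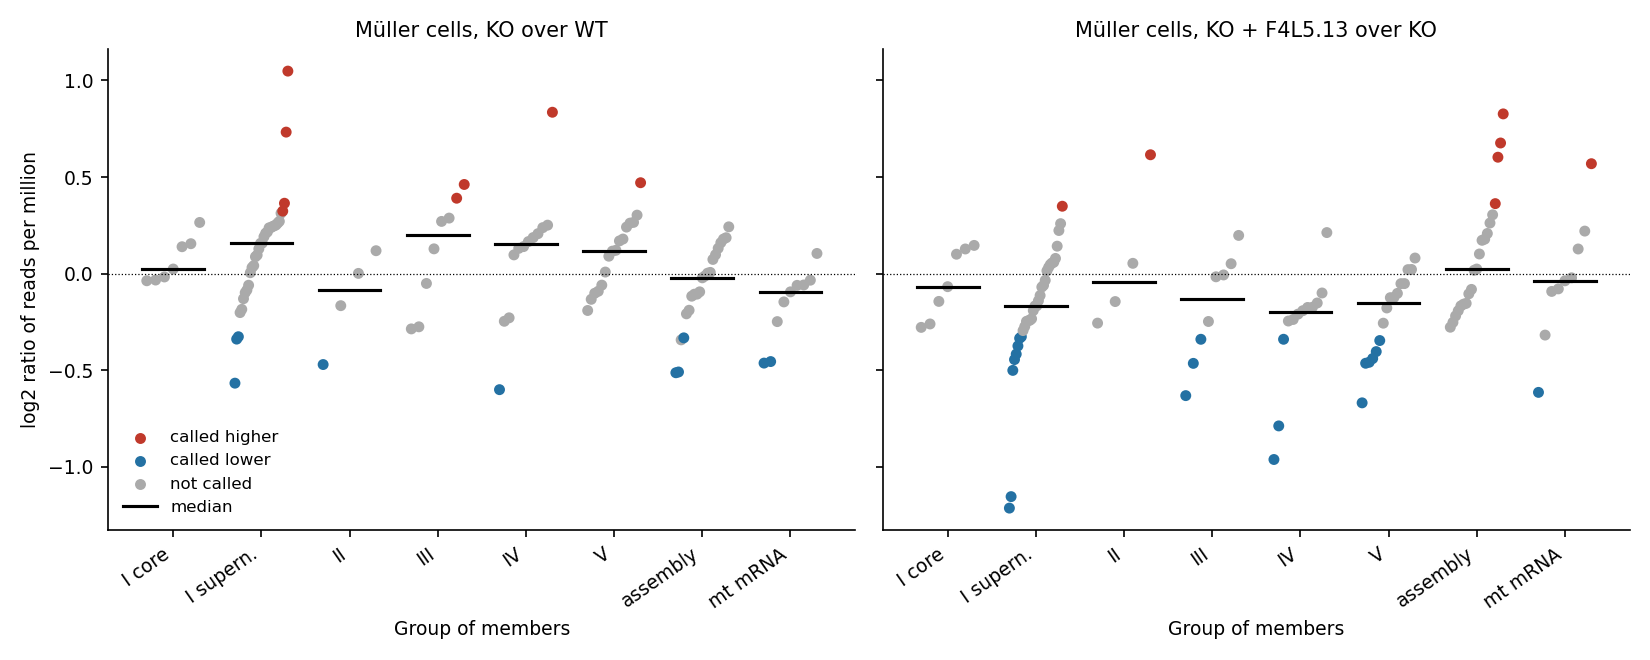
log2 ratio of CPM in Müller cells, KO over WT (left) and KO + F4L5.13 over KO (right), 1 point per gene past the minimum in 8 groups of members, with the median of each group as a bar. Red points were called higher, blue points lower and grey points not called; 8 nuclear subunits are red and 5 blue on the left, and 2 are red and 20 blue on the right.

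Other mitochondrial genes were read in the same Müller cells as lists. Over all genes 13.3% were called higher and 17.9% lower in KO against WT, and 15.1% and 11.5% in treated against KO. Of 13 enzymes of the tricarboxylic acid cycle, 0 were called higher and 4 (30.8%) lower in KO against WT. Fh1, fumarate hydratase, had 32.8 CPM in WT and 21.9 in KO, and Cs, citrate synthase, had 103 and 73.1. Suclg2 and Sucla2, subunits of succinyl-CoA ligase, were the others. Of 16 genes of mitochondrial transcription and RNA stability, 3 (18.8%) were called higher and 2 (12.5%) lower. Tfam, which packs mitochondrial DNA and starts its transcription, had 37.2 CPM in WT, 26.6 in KO and 29 in treated cells. Lrpprc and Slirp, partners that stabilise mitochondrial mRNAs, had log2 ratios of 0.35 and 0.32. Of 77 mitochondrial ribosomal proteins, 3 (3.9%) were called higher and 9 (11.7%) lower. Of 10 nuclear regulators of mitochondrial biogenesis, 0 were called higher and 1 (10%) lower, Gabpa, with 17.4, 12.4 and 16 CPM. Among 15 electron carriers and exchangers 1 (6.67%), the uncoupling protein Ucp2, was called higher. Of 89 cytosolic ribosomal proteins, 8 (8.99%) were called higher and 17 (19.1%) lower. Treated against KO, the tricarboxylic acid cycle enzymes had 3 (23.1%) called higher, among them Fh1 at a ratio of 1.4 (1.17 to 1.68), and 1 (7.69%) lower. Markers of other cells were present in the Müller class of every library: 12 of 12 rod markers had reads, summing to 10087 CPM in WT, 9006 in KO and 11660 in treated cells, and erythrocyte markers summed to 340.4, 1.04 and 662 CPM. All cone, amacrine and bipolar markers also had reads, summing to 408 to 517, 1379.7 to 1882 and 279.5 to 303 CPM. Their part in these ratios was not tested.

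In rods, all 9 mitochondrial mRNA rows past the minimum were called lower in KO than in WT, with a median log2 ratio of -0.78. The rods of the libraries lie in different clusters: 162 of 211 WT rods are in cluster 20, and 1880 of 2327 KO rods are in cluster 0. The mitochondrial mRNA share was 4.83% in WT and 3.88% in KO within cluster 20, a log2 ratio of -0.31, and 4.4% and 2.49% within cluster 0, a log2 ratio of -0.82, where WT has 49 cells. In rods with at least 8000 reads, whose depth still differed as given above, it was 4.83% and 3.68%. mt-Cytb had 18742 CPM in WT, 10523 in KO and 13303 in treated rods, a KO to WT ratio of 0.561 (0.552 to 0.571). mt-Nd6, the only mitochondrial mRNA read from the light strand, had 959, 542 and 629.8 CPM, and lies opposite mt-Nd5. Of the 77 nuclear subunits, 4 were called higher and 8 lower (13 lower without mitochondrial reads and chromosome 1 copies in the total, and 4 lower in rods with at least 8000 reads), while 29.8% of all genes were called higher and 5.6% lower. Their median log2 ratio was -0.07, against 0.33 over all genes. Cox8a, a small subunit of cytochrome c oxidase, had 1692, 1308.5 and 1300.1 CPM, a ratio of 0.773 (0.734 to 0.815). Ndufv3, a flavoprotein-arm subunit of complex I, had 451, 633 and 389.8 CPM and was called higher at 1.4 (1.28 to 1.54). Among assembly factors, Cox10, which makes haem for cytochrome c oxidase, had 16, 33.9 and 27.9 CPM, and Ndufaf6 had 17.1, 34.3 and 25.6 CPM. Rod markers themselves summed to 112384 CPM in WT, 76159 in KO and 87073 in treated rods, and the part of this in the ratios was not tested. Comparing treated with KO rods, 4 of 77 subunits were called higher and 11 lower, beside 6.25% and 15.1% of all genes. The 4 became 1 in rods with at least 8000 reads, and the 11 became 7 without mitochondrial reads and copies and 17 in the cluster shared most evenly.

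In the other 4 classes the nuclear subunits had median log2 ratios of KO to WT between -0.1 and 0.1. In cones 3 of 77 were called higher and 6 lower, beside 10.9% and 5.06% of all genes, and in rod bipolar cells 3 of 76 and 7, beside 9.27% and 7.43%. Cone bipolar cells had 4 of 80 higher and 13 lower, beside 13.8% and 11%. Amacrine cells had 6 of 79 higher and 4 lower, beside 6.08% and 6.55%. With equal weight per cell, 1 cone subunit was called higher and 7 amacrine subunits lower. In cones Ndufa1, a membrane-arm subunit encoded on the X chromosome, had 244 CPM in WT and 161 in KO. Rod bipolar cells read Atp5mpl, a small membrane subunit of ATP synthase, at 1569 CPM in WT, 2306 in KO and 1825 in treated cells, and the gene was called higher in KO there and in cone bipolar cells, with 587, 747 and 591 CPM. In cone bipolar cells Cox7a1 had 4.9 CPM in WT, 14 in KO and 4 in treated cells, so KO was the high library there as in Müller cells.

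A few of the genes differed between libraries in every class. Of 109 members past the minimum in all 6 classes, 3 were called higher in KO than in WT in all 6 and 1 lower; over all genes the shares were 0.425% and 0.439% of 7063. The gene called lower was mt-Rnr2. In Müller cells it had 7290 CPM in WT, 5086 in KO and 8257 in treated cells, and in amacrine cells 5277, 3925 and 6170. Its KO to WT ratio lay between 0.609 and 0.785 over the classes, and its treated to KO ratio between 1.37 and 1.63. The 3 called higher were the pseudogene rows Ndufs5-ps, Ndufa12-ps and Cox5b-ps. Sdhd came close, called lower in 5 of 6 classes: it ranged from 35.5 to 51.7 CPM over the 6 classes in WT, from 22 to 37.3 in KO and from 42.4 to 64.3 in treated cells.

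Comparing treated with KO cells, 2 of 108 members were called higher in all 6 classes and 5 lower, beside 0.457% and 0.913% of 6790 genes. Sdhd and mt-Rnr2 were higher, with ratios for Sdhd between 1.53 and 2.09. Lower were Ndufs5, Cox7c, mt-Nd3, Ndufs5-ps and Ndufa12-ps. Cox7c had treated to KO ratios between 0.568 and 0.673, and mt-Nd3 between 0.579 and 0.724. The log2 ratio of its chromosome 1 copy Gm28438, treated to KO, lay between -0.09 and 0.35 and was above 0 in 5 of 6 classes. The log2 ratio of the sum of mt-Nd3 and Gm28438, a pair chosen after its values were seen, lay between -0.34 and 0.06 with a median of -0.07. Treated against WT, 0 of 99 members were higher and 3 lower in all 6 classes, beside 0.0462% and 0.347% of 4325 genes. These were Cox7c, with ratios between 0.426 and 0.508, mt-Nd3, between 0.425 and 0.686, and Atp5l, between 0.629 and 0.796. With Gm28438 added, the treated to WT log2 ratio of mt-Nd3 lay between -0.62 and -0.08 with a median of -0.16. Cytosolic ribosomal proteins, read by name as a list of non-members, also had rows that differed everywhere: 5 of 76 were called lower and 1 higher in KO against WT in all 6 classes. Whether a difference shared by all classes of a library comes from the animals or from library preparation cannot be told apart.

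Several of these genes have near-identical copies, and no label or header says how reads were divided between copies. Of 81 nuclear subunits with a transcript in GENCODE M21, 20 share at least 1 stretch of 60 bases in the last 400 bases of their longest transcript with another gene, and 4 share at least 50% of such stretches: Ndufb4c, Ndufs3, Cox7c and Atp5h. The sums of member and copy were therefore set beside the single rows, for pairs chosen after their values were seen.

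Ndufb4 alone had KO to WT log2 ratios between -0.64 and -0.29 over the 6 classes, its copy Ndufb4c between 0.12 and 0.57, and their sum between -0.25 and 0.15. Ndufb4 was called lower in 5 of 6 classes by itself, and its sum with the copy lay below 0 in 5 classes and above 0 in 1. Cox7c alone lay between -0.42 and -0.25, its copies Gm12338 and Cox7c-ps1 together between 0.39 and 1, and the sum between -0.17 and 0.1. For treated against KO the sum with Cox7c lay between -0.59 and -0.31, so it was below 0 in all 6 classes. Ndufs5 and Ndufs5-ps had a summed KO to WT log2 ratio between 0.6 and 0.8 and a summed treated to KO ratio between -0.73 and -0.63. In Müller cells the pair summed to 73.9 CPM in WT, 128 in KO and 77.4 in treated cells. The sums of Ndufa12 and of Cox5b with their pseudogene rows lay between 0.01 and 0.3 and between -0.08 and 0.28 for KO against WT, although the pseudogene rows alone were called higher in all 6 classes. Sdhd, Uqcr11 and Atp5k share 0 of 341 such stretches with any other gene.

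**Figure D4:**
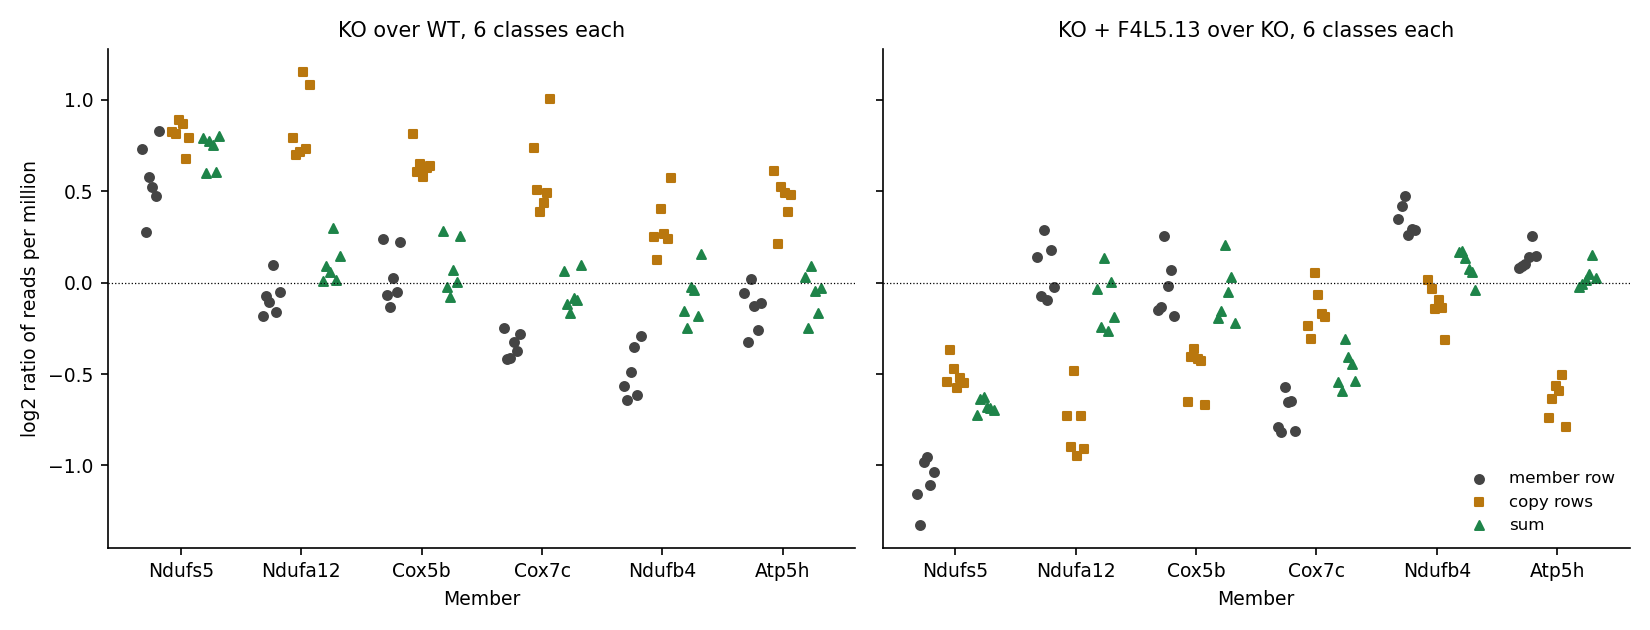
log2 ratio of CPM, KO over WT (left) and KO + F4L5.13 over KO (right), for 6 genes (circles), their copy rows (squares) and the sum of the 2 (triangles), with 1 point for each of 6 classes. The sums of Ndufs5 lie above 0 on the left and below 0 on the right in all 6 classes, while the sums of Ndufb4 lie on both sides of 0.

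Differences between classes can be tested, because each library holds all 6 of them and the library serves as the replicate. The libraries come from 3 different groups and do not repeat 1 state, so a class difference that varies between groups enters the residual spread. Each class was compared with the mean of the other 5 by edgeR's quasi-likelihood test with libraries as blocks, over 18574 genes with Benjamini-Hochberg adjustment at 0.05. Free RNA carried between cells was not removed from these values. Rods, cones and rod bipolar cells had more subunits called higher than lower, and Müller and cone bipolar cells the reverse. In rods 43 of 81 nuclear subunits were higher and 6 lower, beside 23.5% and 27.9% of all genes. In cones 38 were higher and 5 lower, beside 22.6% and 21.4%, and in rod bipolar cells 44 and 7, beside 23.3% and 23.5%. Müller cells had 9 higher and 48 lower, beside 35.3% and 26.9%, and cone bipolar cells 3 and 57, beside 26.9% and 19.3%. Amacrine cells had 4 higher and 25 lower, beside 29% and 21.8%, but with scaling by total reads instead of TMM 37 were higher and 10 lower, so the direction there depends on the scaling. That scaling moved the median of all genes in amacrine cells from 0.03 to 0.30 on the log2 scale. It also took cone bipolar cells to 9 higher and 17 lower, rods to 30 and 18, Müller cells to 5 and 66 and cones to 28 and 12, with the median of all genes moving from 0.03 to 0.33, from -0.13 to -0.34, from 0.03 to -0.24 and from -0.05 to -0.15. Of all genes called, the share called higher moved from 56.8% to 43.3% in Müller cells, from 45.8% to 33.1% in rods, from 58.2% to 80.1% in cone bipolar cells and from 57% to 75.2% in amacrine cells. Without the treated library, and so with fewer samples, 29 Müller, 3 rod, 3 cone and 33 cone bipolar subunits were lower, and 18 cone, 21 rod bipolar, 1 cone bipolar and 2 amacrine subunits were higher. Müller cells had 5 higher without the KO library, and cone bipolar cells 1 higher without WT.

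The mitochondrial mRNA rows as deposited did not follow the nuclear subunits in Müller cells. The chromosome 1 copies, with 60.8% to 63.8% of the reads of these rows and the copies combined, are not in the counts of this paragraph. Summed with its copy in WT, mt-Co1 had 5747 CPM in Müller cells and 5380 to 11755 in the neuronal classes. For mt-Nd3 these sums were 2551 and 1538 to 3236 CPM. Whether Müller cells stay higher with all copies counted was not tested. There 8 of 9 mitochondrial rows were higher and 0 lower, with a median log2 difference of 0.44, while the nuclear subunits had a median of -0.3. In cones 6 of 9 were higher and 0 lower, and in rods 6 and 1. In cone bipolar cells 8 were lower and 0 higher, and in amacrine cells 9 were lower. mt-Nd2 in Müller cells had a log2 difference of 0.85 (SE 0.13, edgeR adjusted p = 1.4e-05), and mt-Cytb in cones 0.74 (SE 0.11, edgeR adjusted p = 4.2e-05). With scaling by total reads the medians of the mitochondrial rows kept their signs, at 0.18 in Müller cells, 0.46 in cones, 0.15 in rods and -0.37 in both cone bipolar and amacrine cells. Of the 17 subunits of ATP synthase, 14 were higher and 0 lower in rod bipolar cells, and 0 were higher and 12 lower in Müller cells.

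**Figure D5:**
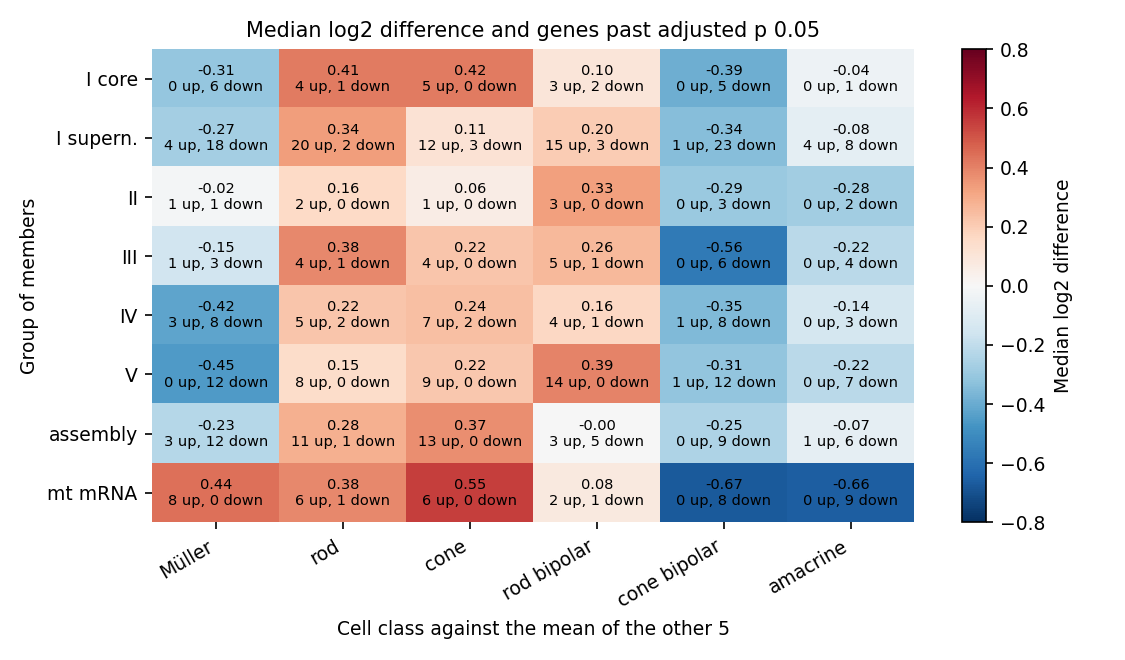
Median log2 difference of 8 groups of members (rows) in each of 6 classes against the mean of the other 5 (columns), with the number of genes past the adjusted threshold in each direction. The mitochondrial mRNA row, without the chromosome 1 copies, is red for Müller cells (0.44) and blue for cone bipolar (-0.67) and amacrine cells (-0.66).

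Single genes differed between classes by more than their complexes did. Ndufaf5 (chr2:140170649-140203689, plus strand), an enzyme that modifies the complex I core during assembly, had 270, 254 and 235 CPM in cones and 109, 111 and 92.1 in rods, against 10 to 18.5 CPM in the 4 other classes, and its log2 difference was 3.71 in cones (SE 0.08, edgeR adjusted p = 9.8e-16). Atp5mpl was higher in rod bipolar cells, by 2 on the log2 scale (SE 0.09, edgeR adjusted p = 1.1e-11). Atp5g1, which encodes the proton ring subunit c, was higher in cones by 1.26 (SE 0.09, edgeR adjusted p = 5.1e-09). In Müller cells Atp5b was lower, with a log2 difference of -1.11 (SE 0.11, edgeR adjusted p = 5.9e-08), as were the assembly factors Ndufaf4 and Cox10.

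Tissue-restricted isoforms of complex IV were not spread evenly over the classes. Cox6b2 (chr7:4751792-4753094, minus strand) had its highest level in Müller cells, as given above, against 3.7 to 30.2 CPM in the 5 neuronal classes, and its log2 difference was 3.08 (SE 0.16, edgeR adjusted p = 2.4e-11). Its partner Cox6b1 had a difference of 0.03 in Müller cells, which missed the threshold. Cox7a1 was higher in Müller cells by 1.7 (SE 0.24, edgeR adjusted p = 9e-06). Cox6a2, the heart and muscle isoform of subunit 6a, and Cox7b2 stayed at or below 3.5 CPM in every class and library. Atp5g2, a further gene for subunit c, was read at 3 CPM or less in every class, beside 183 to 605 CPM for Atp5g3.

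Cox8b (chr7:140898945-140900446, minus strand), the heart and muscle isoform of subunit 8, was read at 7.27, 4.83 and 9.35 CPM in cone bipolar cells and at 2.99 CPM or less in the 5 other classes, with a log2 difference of 4.73 (SE 0.55, edgeR adjusted p = 3.3e-06). In cone bipolar cluster 14, a read was found in 47 of 196 cells of the WT library, 12 of 86 of the KO and 38 of 139 of the treated library. That is 24% (exact 95% interval 18.2 to 30.6), 14% (7.42 to 23.1) and 27.3% (20.1 to 35.5), at median depths of 10124, 10646 and 12397 reads. Cluster 14 held 46.5% of the Cox8b reads of the WT library, 15.8% of the KO and 23.3% of the treated library. Other cone bipolar clusters had reads too, among them 10, 11, 19 and 34, with a read in 4.08% to 17.2% of cells at median depths of 19076 to 36494. Cones of cluster 5, with 12664, 11655 and 14418 reads per cell, had a read in 0 of 478, 0 of 302 and 0 of 232 cells, and cone bipolar clusters 12, 16 and 18 had none either. The Müller class also passed the threshold for Cox8b, with a log2 difference of 2.1 (SE 0.67, edgeR adjusted p = 0.013). In Müller cluster 29, 2 KO and 5 treated cells, 2.86% and 4.95% of its cells, held 36 and 77 reads, and without the KO or the treated library it missed the threshold, at 1.82 and 1.44.

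The promoters of the nuclear genes were read from RefSeq for GRCm38, 250 bases before to 50 after the start, and found for 69 of 83 subunits and 18 of 21 assembly factors. NRF1 is a textbook activator of respiratory genes, and its core GCGCATGCG was found on either strand in 8 subunit promoters, 11.6%, against 2.61% of 17492 protein-coding genes. The core bound by GABP and other ETS factors, CCGGAAG, was found in 24.6% of subunit promoters and in 55.6% of those of assembly factors, against 13% of all genes. AAGATGGC, the core of YY1, was found in 14.5% against 3.57%, and TCAAGGTCA, bound by oestrogen-related receptors, in 2.9%, which is 2 promoters, against 0.377%. Of the 18 assembly factor promoters, 2 held the NRF1 core, 3 the YY1 core and 0 TCAAGGTCA. The motifs do not contain each other, and a match is a run of letters, not a measured site. Whether the NRF1 core goes with the calls was not tested, and Cox6a1, which has the core, was not called in KO against WT Müller cells. Atp5k and Ndufa11, called higher in KO Müller cells, are among the subunits with the NRF1 core, as is Atp5l, lower in treated than in WT cells in all 6 classes, and Atp5g2, which was nearly unread. Their windows are shown with the core in capitals (for Atp5l the match is on the opposite strand), at chr5:108434421-108434469 (minus strand), chr17:56717682-56717730 (plus strand), chr9:44920955-44920992 (minus strand) and chr15:102671061-102671109 (minus strand). The matches lie 50, 60, 241 and 42 bases before the start.
Atp5k: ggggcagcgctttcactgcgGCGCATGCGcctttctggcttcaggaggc
Ndufa11: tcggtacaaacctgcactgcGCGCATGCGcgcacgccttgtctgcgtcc
Atp5l: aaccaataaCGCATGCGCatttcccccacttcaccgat
Atp5g2: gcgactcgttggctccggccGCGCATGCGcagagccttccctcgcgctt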

How the data were processed

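Single-cell 3′ tag libraries (10x Chromium v3) of 3 groups were analysed, 1 library each. The submitters' processing notes name mm10 and Partek 9.0, with no role for either. The deposited tables hold estimated counts per gene and barcode, unscaled; no label or header says how the authors made them or if reads were collapsed to molecules. Of the nonzero values 2.33% to 2.4% lay more than 0.001 from a whole number. Values were rounded, which set 3.33% to 3.39% of them to 0. Among values up to 10 in genes of few barcodes only 46% to 52.1% were 1, so the values were taken as reads, and intervals and minimums used reads divided by 2.98, 2.93 and 3.24 (WT, KO, treated). No column of the tables was left unused (0).

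Barcodes with under 500 genes or over 20% mt- reads, and the highest-ranked simulated-neighbour doublets (0.8% per 1000 barcodes; 296, 882 and 702), were left out. Leiden clustering (leidenalg 0.10.2; 2000 variable genes without the members and lists, 40 components, 15 neighbours, resolution 1.0) pooled the 3 libraries without batch correction. A cluster took a class name from at least 3 markers 2-fold above other clusters and present in 20% of its cells, and this naming was settled in detail with the clusters in view. Clusters 1 and 8 met this for rods but stayed unnamed for low depth with no rod marker among their leading genes, and they hold most unnamed KO and treated cells. Unnamed cells (85, 2091 and 2089) were left out, and the doublets and free RNA that remain are in every class value. Total reads were 1.19e+08 to 1.4e+08 per library, so intervals are narrow, and they cover counting error only. Clopper-Pearson and conditional binomial intervals (scipy 1.17.1) are at 95%.

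Differences between classes used edgeR 4.0.16 (TMM, filterByExpr, quasi-likelihood F test with libraries as blocks) on the sums of rounded estimated counts per library and class; both this and the ratio code were tested on simulated data. Alternatives were DESeq2 1.42.0, scaling by total reads, filters, cell weights and left-out libraries. Members and lists were chosen with earlier results of these data known. Named genes were, in Müller cells, the 8 highest and 8 lowest called ratios of each comparison, elsewhere the 3 highest and 3 lowest, the 3 largest class differences in each direction, all mitochondrial mRNAs, the isoform pairs, and at most 4 called genes per direction of other lists; not all are printed, and a few genes were added for contrast after their values were seen (Sdha, Sdhb, Atp5b in KO against WT, Cox8a in rods, Ndufv3, Uqcrq, Ndufa11). Positions and transcripts are from GENCODE M21 (127 of 134 rows matched), promoters from RefSeq.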

Additional observations from a re-analysis of the deposited data

Results flagged for a closer look

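The chromosome 1 copies of mitochondrial genes hold a signal outside the member rows: 5.22% of all reads in WT, 4.63% in KO and 5.61% in the treated library. For mt-Co2, mt-Atp6 and mt-Co3 the aligned sequence of gene and copy is identical, so their reads cannot be told apart by it.

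The nuclear subunit share moved in opposite directions in different classes between the KO and WT libraries. The log2 ratio of KO to WT was 0.13 in Müller cells, 0.09 in amacrine cells and 0.01 in rod bipolar cells, and -0.09 in rods, -0.06 in cones and -0.1 in cone bipolar cells. With 1 library per group this difference between classes was not tested.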

How the results depend on the processing

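No called value of a single gene reversed, while the balance of amacrine subunits and of the treated against WT quotients turned, as given here. No paired analysis was possible because each group has 1 library, and the classes of 1 library entered the class comparison as a block. Of the counts that answer a comparison, 240 values stayed within 1.5 times of the reported one and 35 moved. Of other values, 534 stayed, 193 moved by more than their counting interval and 15 class differences lost their call with the direction kept, among them Cox18 in rods and amacrine cells and Cox8b in Müller cells and cones. The causes were not tested.

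Giving every cell equal weight left 1 cone subunit called higher and 7 amacrine subunits lower in KO against WT, 1 Müller subunit higher in treated against WT (also 1 without the minimum), and a higher quotient in treated than WT cells in 2 classes. Taking CPM without mitochondrial reads and copies gave 13 rod subunits lower in KO against WT and 7 lower in treated against KO. Cells of at least 8000 reads gave 4 rod subunits lower in KO against WT and 1 higher in treated against KO, and the rod cluster that the libraries share most evenly gave 17 lower. The settings with copies and with at least 8000 reads were chosen after seeing the data. The quotient was higher in treated than in KO cells in 0 classes without a limit on mitochondrial reads or with the copies counted, and in 1 class with a 10% limit, with doublets kept, with members in the clustering or with at least 8000 reads. The evenly shared cluster was not run for rods and amacrine cells in KO against WT, where a library had under 50 cells.

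Between classes, scaling by total reads gave 5 Müller subunits higher, 18 rod subunits lower, 12 cone subunits lower, 9 cone bipolar subunits higher and 17 lower, and 37 amacrine subunits higher and 10 lower. DESeq2 gave 8 amacrine subunits higher. Leaving out 1 library at a time gave 5 to 10 Müller subunits higher and 29 to 49 lower, 31 to 45 rod subunits higher and 3 to 6 lower, 18 to 37 cone subunits higher and 3 to 5 lower, 21 to 36 rod bipolar subunits higher and 5 to 7 lower, 1 to 3 cone bipolar subunits higher and 33 to 51 lower, and 2 to 5 amacrine subunits higher and 18 to 27 lower.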
